A study of Homo sapiens with 12 samples.

Results

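OLR1 encodes the oxidized LDL receptor, also called LOX-1, a scavenger receptor of the C-type lectin-like family. It was chosen by its measured values, as one of the largest differences between cells given concanavalin A and their controls, and it is 1 of the 16633 genes with a row in at least 1 of the 2 expression tables. The 16 other scavenger receptors with a row in either table, among them SCARB1, SCARB2 and MSR1, served for comparison, and CD36, MARCO and STAB2 had no row and were not analysed here. Polyadenylated RNA was sequenced from 12 libraries of HT1080, a human fibrosarcoma cell line of wt genotype, in 4 groups of 3. Treatment with 40 nM PMA, a phorbol ester that activates protein kinase C, for 24 h (PMA libraries 1 to 3) was set against controls 1 to 3. Treatment with 40 µg/mL ConA, a plant lectin that binds mannose-rich glycans and crosslinks glycoproteins, for 24 h (ConA libraries 1 to 3) was set against controls 4 to 6. All cells had been grown in biotin-depleted medium with full serum and were moved to biotin-depleted medium with little serum before treatment. The line is a single tumour-derived population, and the sources do not state whether replicate libraries came from separate cultures, so p-values measure only the spread between these libraries.

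OLR1 binds oxidized low density lipoprotein, and also bacteria, apoptotic cells and activated platelets, and is best known from endothelial cells, macrophages and smooth muscle cells of the arterial wall. It is a type II membrane protein whose lectin-like domain can be released from the cell surface by proteases, and ligand binding is known to raise reactive oxygen species and NF-kB activity. The gene is known to respond to inflammatory cytokines, oxidized lipids and protein kinase C activators. It lies in the natural killer gene complex, a cluster of genes for lectin-like receptors.

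Values are the deposited normalized counts, that is, reads assigned to a gene divided by 1 factor per library. They are not divided by gene length, so a level is compared between genes only after division by transcript length. About 33638220 to 45595437 reads per library were assigned to genes, with a median of 40968433, estimated from the spacing of low values. The controls of the 2 experiments were normalized in separate tables, and each treatment was compared with the controls of its own table. Defining mesenchymal genes (VIM, FN1, CD44 and 5 others) had rows in both tables for 8 of 8 genes and summed to 529330 to 532580 normalized counts in PMA controls and 532620 to 550980 with PMA. Single members moved in opposite directions with PMA, with 2 higher and 5 lower at an unadjusted p under 0.05 in limma. The mean of VIM went from 195751 to 275216 and that of FN1 from 167348 to 113452, and MMP2 fell (log2 change −1.28, adjusted p = 3.97e-09 in limma). The same 8 genes summed to 576900 to 647950 in ConA controls and 391510 to 429670 with ConA, where VIM had a log2 change of −0.79 and S100A4 fell (−1.05, adjusted p = 7.02e-05 in limma). With ConA, 7 of the 8 were lower and 1, CDH2 (log2 change 0.47), was higher at an unadjusted p under 0.05 in limma.

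OLR1 was barely expressed in both sets of controls and higher with either treatment. It measured 13.8, 10.7 and 9.03 normalized counts in PMA controls 1, 2 and 3, and 91.7, 90.3 and 85.0 in PMA libraries 1, 2 and 3. The group means were 11.2 ± 2.43 and 89.0 ± 3.53 (SD, n = 3 each). All 3 PMA libraries lay above all 3 controls, and the lowest PMA library was 6.15 times the highest control. In the ConA experiment, OLR1 measured 2.08, 5.00 and 1.00 normalized counts in controls 4, 5 and 6, and 504.7, 740.0 and 666.8 in ConA libraries 1, 2 and 3. The means there were 2.70 ± 2.07 and 637 ± 120.4 (SD, n = 3 each). The groups were again apart, with the lowest ConA library at 100.9 times the highest control. Ranked by mean, the order was ConA, PMA, PMA controls and ConA controls, and no library of one group overlapped with those of its neighbour in that order, although the 2 tables were scaled apart.

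**Figure D1:**
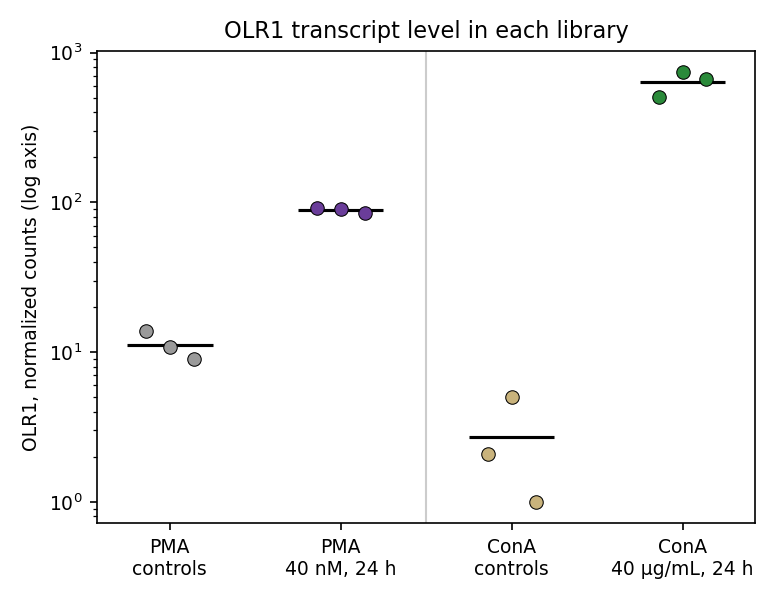
OLR1 level in each of the 12 libraries, as normalized counts on a log axis, with 1 point per library and a bar at the mean of each group of 3. The PMA libraries sit between 85.0 and 91.7 and the ConA libraries between 504.7 and 740.0, all above the controls of their own table.

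The control levels rest on few reads. OLR1 had about 15, 12 and 10 reads in PMA controls 1 to 3, and 2, 5 and 1 in ConA controls 4 to 6. The 8 reads over the ConA controls have a 95% exact Poisson interval of 3.45 to 15.8 reads, against 1954 reads over the ConA libraries. The ConA ratio of 236 between the group means therefore has a counting interval of 119 to 546, and the PMA ratio of 7.95 one of 5.63 to 11.6. These intervals cover counting error only, not the spread between libraries. Among the genes listed in its table, OLR1 stood at the 4.22 to 8.32 percentile of level in the PMA controls and at the 25.1 to 25.9 percentile with PMA. In the ConA experiment it moved from the 0.575 to 2.78 percentile to the 41.0 to 47.1 percentile, that is, from the bottom of the table to near its middle.

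The PMA comparison was not used to choose OLR1 and could be tested. OLR1 rose with PMA by 2.90 (SE 0.22) on the log2 scale of normalized counts + 1, with an adjusted p of 4.96e-07 in limma. A gene was called where its log2 change was 1 or more in either direction and its adjusted p did not exceed 0.0001. OLR1 passed, as did 4.03% of the 15153 tested genes in the upward direction. In the order of rises with PMA, OLR1 was at place 104. Complete separation of treated libraries above controls was common, at 34.8% of tested genes. The log2 change stayed between 2.77 and 3.05 when any 1 library was left out, and the call held each time.

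The change with ConA chose the gene and is given as a description without a test. OLR1 was higher with ConA by 7.56 on the log2 scale, at place 4 of 15139 genes, between CCL5 at 8.77 and IDO1 at 7.54. The addition of 1 count before the log compresses this value, since the controls lay near 1 to 5 counts. In the same direction, 5.83% of tested genes passed the thresholds with ConA, and 34.9% had all treated libraries above all controls. The libraries within the ConA group differed more than those within the PMA group, with library 1 lowest at 504.7 and library 2 highest at 740.0. In bulk RNA, fewer expressing cells and less RNA per cell cannot be told apart, so the level is a mean over all cells of a dish.

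The other scavenger receptors take up modified lipoproteins, dead cells and microbes through unrelated protein folds. With PMA, 14 of the 19 receptors on the list had a row and were tested, and 2 rose and 4 fell. That is 42.9% of those tested, against 8.65% of all tested genes, with a median log2 change of −0.54 against 0.0029 over all genes. With ConA, 15 had a row and 13 were tested, and 4 rose and none fell, which is 30.8% against 8.71% of all tested genes (2.88% for falls alone). At an unadjusted p under 0.05 in limma, without a minimum on size, 7 were higher and 3 lower with ConA. The median log2 change with ConA was 0.16, against −0.0022 over all genes. SCARF1 was the 1 receptor that passed in both comparisons. With PMA, 3 of the 14 tested receptors (SCARA5, COLEC12 and CD163) reached the minimum mean of 10 normalized counts through 1 group only and so had to differ, and 2 of the 6 calls, SCARA5 and CD163, are of this kind. The counts are therefore a description of the list.

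**Figure D2:**
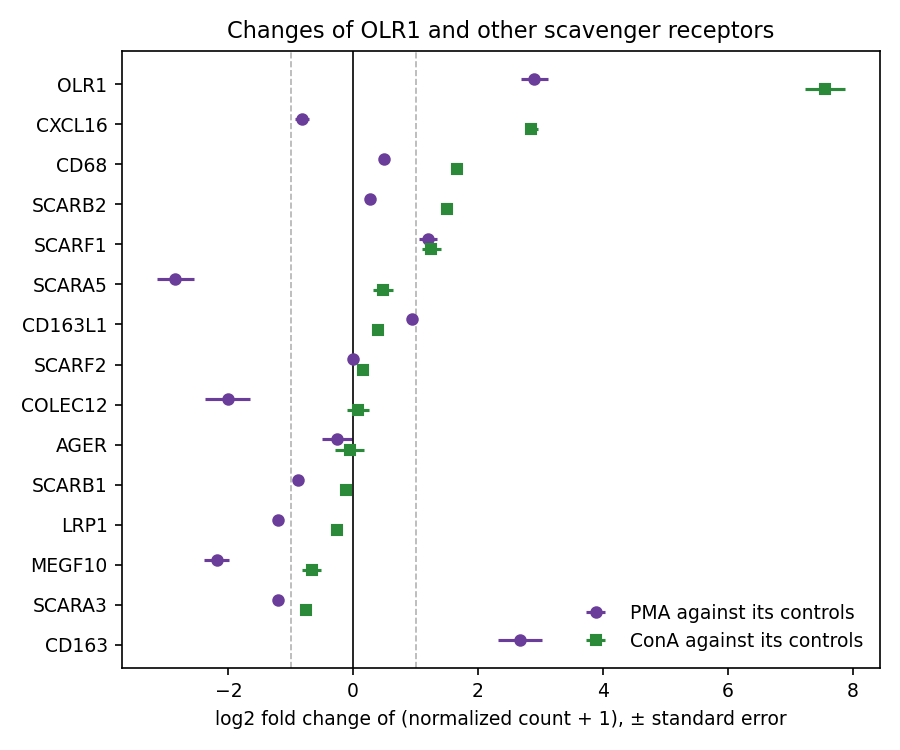
Log2 fold changes of OLR1 and the other tested scavenger receptors against the controls of their own table, with bars of 1 standard error and dashed lines at the threshold of 1 in either direction. OLR1 has the largest value in both comparisons (2.90 with PMA and 7.56 with ConA), followed by CD163 with PMA at 2.67 and CXCL16 with ConA at 2.85.

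The class B receptors, a family of proteins anchored in the membrane at both ends, include SCARB1, which takes up cholesteryl ester from high density lipoprotein. SCARB1 measured 1411, 1394 and 1493 normalized counts in PMA controls 1 to 3, and 786, 746 and 787 in the PMA libraries. These groups did not overlap, as for the 33.1% of tested genes with all PMA libraries below all controls, yet the log2 change of −0.89 (SE 0.05, adjusted p = 4.85e-08 in limma) missed the threshold on size. With ConA, SCARB1 had a log2 change of −0.11 (SE 0.06, adjusted p = 0.115 in limma), from 1659 ± 8.55 to 1539 ± 77.0 (SD, n = 3 each). SCARB2, the lysosomal membrane protein that carries glucocerebrosidase to lysosomes, measured 9743, 8732 and 8827 normalized counts in ConA controls 4 to 6. In ConA libraries 1 to 3 it measured 23564, 27092.5 and 26433. SCARB2 rose with ConA by 1.497 (SE 0.06, adjusted p = 1.02e-10 in limma) and had a log2 change of 0.26 with PMA (adjusted p = 4.78e-05 in limma), below the threshold on size.

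The class A receptors, trimeric proteins with a collagen-like stalk, showed no rise past the thresholds. MSR1, the macrophage receptor of this class, had a row only in the ConA table, with 0, 6.00 and 0 normalized counts in controls 4 to 6 and 4.01, 10.5 and 19.8 in ConA libraries 1 to 3. The groups overlapped, because control 5 lay above ConA library 1, and its mean was too low for a test. SCARA5, a ferritin receptor, measured 48.9, 42.9 and 67.7 normalized counts in PMA controls 1 to 3, and 8.13, 6.65 and 4.79 with PMA. Its log2 change was −2.85, given without a test because SCARA5 reached the minimum mean through the controls. SCARA5 did not pass with ConA, where its log2 change was 0.48 (adjusted p = 0.0175 in limma). SCARA3, a receptor linked to oxidative stress, fell with PMA (−1.20, adjusted p = 6.12e-09 in limma) and had a change of −0.75 with ConA. COLEC12, a collectin with a scavenger role on endothelium, had a log2 change of −2.01 with PMA and no call. No test is given for this change, because COLEC12 too reached the minimum mean through the controls.

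Among receptors of other classes, CD68 and CXCL16 rose with ConA and did not pass with PMA. CXCL16, a membrane-bound chemokine that also binds oxidized LDL and phosphatidylserine, measured 124, 152 and 148 normalized counts in ConA controls 4 to 6, and 917, 1013 and 1149 with ConA. It rose with ConA by 2.85 (adjusted p = 2.02e-11 in limma), whereas with PMA its log2 change was −0.82 (adjusted p = 7.67e-05 in limma), from 171 ± 12.8 to 96.2 ± 6.99 (SD, n = 3 each). CXCL16 was thus lower in all 3 PMA libraries and higher in all 3 ConA libraries than in the matching controls. CD68, a lysosomal glycoprotein used as a macrophage marker but present in many cells, measured 5742, 6142 and 5890 normalized counts in ConA controls 4 to 6 and 17142, 19136 and 20414 with ConA. CD68 rose with ConA by 1.67 (adjusted p = 2.42e-11 in limma), and its change with PMA was 0.49 (adjusted p = 1.22e-06 in limma).

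SCARF1, an endothelial receptor for acetylated LDL, rose with both treatments. It measured 59.9, 45.6 and 54.2 normalized counts in PMA controls and 117, 118 and 133 with PMA, and 55.2, 75.0 and 60.1 in ConA controls 4 to 6 and 145, 139 and 172 with ConA. Its log2 changes were 1.20 with PMA (adjusted p = 2.97e-05 in limma) and 1.25 with ConA (adjusted p = 7.35e-06 in limma). Both calls lay near the thresholds. The PMA call was lost without PMA control 2 or any PMA library (adjusted p from 1.42e-04 to 2.65e-04 in limma), and the ConA call without ConA library 3 (1.13e-04). Both were lost without the variance trend (3.95e-04 and 5.74e-04). CD163, the macrophage receptor for haptoglobin-haemoglobin complexes, had a row in the PMA table only, with 4.61, 2.68 and 3.61 normalized counts in controls and 26.7, 25.7 and 32.3 with PMA. Its log2 change was 2.67 and no test is given, because CD163 reached the minimum mean through the PMA libraries in which it was high.

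LRP1, a large endocytic receptor, and MEGF10, an engulfment receptor, both fell with PMA. LRP1 went from 17176 ± 362 to 7496 ± 408 normalized counts (SD, n = 3 each), a log2 change of −1.20 (adjusted p = 1.11e-09 in limma). MEGF10 had a log2 change of −2.19 with PMA (adjusted p = 2.31e-06 in limma), and measured 85.7, 99.3 and 87.6 in controls and 19.7, 22.8 and 15.6 with PMA. The MEGF10 call was narrowly lost without the variance trend (adjusted p = 1.02e-04 in limma). Neither passed with ConA, where the changes were −0.27 for LRP1 and −0.66 for MEGF10. Besides SCARB1 and COLEC12, the members that passed in neither comparison were SCARF2, CD163L1 and AGER, with log2 changes between −0.26 and 0.94. STAB1, an endothelial and macrophage receptor, was listed only for ConA, with 16.7, 6.00 and 14.02 normalized counts in controls 4 to 6 and 7.01, 2.09 and 4.49 with ConA, so its groups overlapped, whereas 34.4% of tested genes had all ConA libraries below all controls.

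The difference between the 2 log2 changes, PMA minus ConA, was tested for the 13 other receptors listed in both tables and high enough for the fit of all 12 libraries. It passed for 5 of them (38.5%), against 10.6% of the 15030 genes tested, and all 5 had the more positive change with ConA, a direction taken by 6.89% of genes against 3.67% for the other. The differences were −3.67 for CXCL16 (adjusted p = 1.67e-12), −1.52 for MEGF10 (3.34e-05), −1.23 for SCARB2 (2.79e-10) and −1.18 for CD68 (9.43e-10), all in limma. That of SCARA5 was −3.32, given without a test, because SCARA5 reached the minimum mean in the PMA comparison through the controls. Its place among the 5 is a description. For OLR1 the difference of −4.66 is a description, because its ConA value chose it. OLR1 and CXCL16 therefore both had larger values with ConA, but with PMA OLR1 was above and CXCL16 below its controls.

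Per kilobase of transcript, OLR1 was among the lowest of the receptors in controls and near the middle with treatment. It had 4.55 normalized counts per kb in PMA controls, at place 14 of 15 receptors, OLR1 included, where the median was 76.9. With PMA it had 36.2 per kb and stood at place 9 of 15. In the ConA controls it had 1.10 per kb, at place 15 of 16, and with ConA 259 per kb, at place 8 of 16, above the median of 178. Even with ConA, OLR1 transcript per kb thus remained below that of 7 other receptors.

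**Figure D3:**
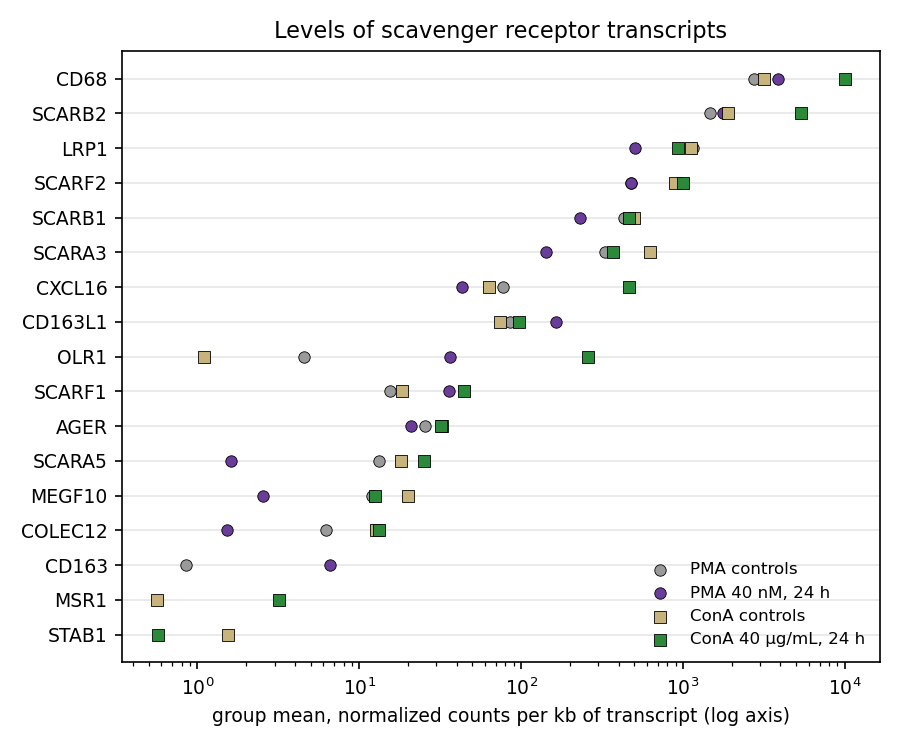
Group mean of each scavenger receptor as normalized counts per kb of transcript on a log axis, with circles for the PMA table and squares for the ConA table. OLR1 runs from 1.10 in the ConA controls to 259 with ConA, while SCARB2, CD68 and LRP1 lie to the right of OLR1 in every group.

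Receptors for native lipoproteins and their regulators included 3 calls, all of them falls, while 2 members in each comparison were higher at an unadjusted p under 0.05 in limma. With PMA, 2 of 12 tested members fell (16.7%, against 4.61% of all tested genes), among them MYLIP, a ubiquitin ligase that targets lipoprotein receptors for degradation, by 1.19 on the log2 scale (log2 −1.19, adjusted p = 2.45e-08 in limma). With ConA, 1 of 12 fell (8.33%, against 2.88% of all tested genes that fell and 8.71% that passed in either direction), VLDLR, a receptor for triglyceride-rich lipoproteins, with a log2 change of −1.15 (adjusted p = 9.64e-09 in limma). VLDLR had a log2 change of 0.13 with PMA (adjusted p = 0.0546 in limma).

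Genes of lipid handling in foam cells, the lipid-laden cells in which OLR1 and its relatives are studied, had 5 falls among 15 tested with PMA (33.3%, against 4.61% of all tested genes) and 2 among 14 with ConA (14.3%, against 2.88%), and no rise. At an unadjusted p under 0.05 in limma, 6 members were higher with PMA and 5 with ConA. With PMA the members that fell were PPARG, a fatty acid sensing nuclear receptor (−3.68), ABCG1, a cholesterol exporter (−1.85), LIPA, the lysosomal acid lipase (−1.63), NR1H3, an oxysterol receptor (−1.44), and APOE, an apolipoprotein (−1.12). PPARG measured 119, 123 and 120 normalized counts in PMA controls, and 8.13, 10.5 and 7.18 with PMA, so that it reached the minimum mean of 10 through the controls. With ConA the members that fell were APOE (−1.35) and ABCG1 (−1.25). The median log2 change of the list was 0.0034 with PMA and −0.089 with ConA, near that of all genes.

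Genes that act at or below the receptor protein mostly stayed within the thresholds. Of the 12 tested genes of OLR1 shedding and signalling, none passed with PMA. At an unadjusted p under 0.05 in limma, 11 of the 12 differed with PMA, 3 higher and 8 lower. CYBB, the catalytic subunit of the phagocyte NADPH oxidase, was listed for ConA only, below the minimum for a test. MMP14, a membrane protease known to associate with the receptor, had log2 changes of 0.58 with PMA and −0.15 with ConA. The sheddases ADAM10 and ADAM17 had changes between −0.21 and 0.22.

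Genes that oxidized LDL is known to induce through the receptor were often higher. With PMA, 4 of 9 tested members rose (44.4%, against 8.65% of all tested genes called and 4.03% that rose), and with ConA 7 rose and 1 fell (88.9%, against 8.71%). With PMA, 5 members were higher and 2 lower at an unadjusted p under 0.05 in limma. The lower members were CCL2 (−0.55) and VEGFA (−0.87). The adhesion molecule ICAM1 had log2 changes of 4.33 with PMA and 5.33 with ConA, and it measured 684, 596 and 645 normalized counts in PMA controls and 13022, 12602.5 and 13192 with PMA. The cytokines CXCL8 and IL6 had changes of 5.80 and 5.56 with PMA and of 4.08 and 3.94 with ConA. With ConA, the chemokine CCL2 (2.10) and the receptor CD40 (2.87) also passed, and VEGFA, an angiogenic factor, fell (−1.22). VCAM1, an adhesion molecule, was at 0 in all 3 ConA controls and at 16.0, 43.9 and 28.8 with ConA. It was at least 9.71-fold higher against a floor of 3 reads per library. VCAM1 reached the minimum mean through the ConA libraries alone, so its place among the 7 rises is a description. No oxidized LDL was named as added to these cells, and these genes answer to many other stimuli.

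Signals known to induce OLR1 had 6 rises among 20 tested with PMA (median log2 change 0.31) and 8 with ConA (median 0.85), and no fall, against rises of 4.03% and 5.83% of all tested genes. At an unadjusted p under 0.05 in limma, 7 members were lower with PMA and 4 with ConA. The NF-kB subunits NFKB1, NFKB2 and RELB rose in both comparisons, by 1.28, 1.33 and 1.11 with PMA and by 1.09, 1.64 and 1.46 with ConA. NFKB2 measured 5171, 4908 and 5282 normalized counts in PMA controls and 13100.3, 12414 and 12979 with PMA. The AP-1 members FOSL1 (1.81) and JUNB (1.20) and the interferon gamma receptor chain IFNGR2 (1.10) passed with PMA. With ConA the further members that passed included TNFRSF1B, a TNF receptor (4.44), FOS (1.53), IL1R1, the interleukin 1 receptor (1.25), and IRF1, an interferon-regulated factor (1.22).

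OLR1 sits among genes for other lectin-like receptors, and several of these were higher with ConA. Of the 10 protein-coding genes on each side in the RefSeq order of the GRCh38 assembly, a window set with the values known, 8 of 20 had a row in each table. With PMA, 7 were tested and none passed, and with ConA 5 were tested and 3 rose, CLEC7A, CLEC2B and KLRC2, where 5.83% of all tested genes rose. At an unadjusted p under 0.05 in limma, 2 of the 7 differed with PMA, GABARAPL1 and KLRC1, both higher. KLRC1 measured 4.70, 11.6 and 11.9 normalized counts in PMA controls and 34.1, 31.8 and 25.1 with PMA. It reached the minimum mean through the PMA libraries, so its place among the 2 is a description. CLEC7A, the beta-glucan receptor Dectin-1 and the direct neighbour on one side, measured 28.1, 20.01 and 21.0 normalized counts in ConA controls and 258, 311 and 305 with ConA (log2 change 3.61, adjusted p = 2.54e-10 in limma). In the PMA table CLEC7A was too low for a test, at 6.45, 7.15 and 10.8 in controls and 3.48, 2.85 and 2.39 with PMA, where OLR1 rose. TMEM52B, the direct neighbour on the other side, was listed for ConA only, at 0 in all 3 controls and at 16.0, 18.8 and 18.9 with ConA, which is at least 5.88-fold higher against the floor of 3 reads per library. GABARAPL1, an autophagy gene next to it, had log2 changes of 0.36 with PMA and 0.89 with ConA, below the threshold.

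**Figure D4:**
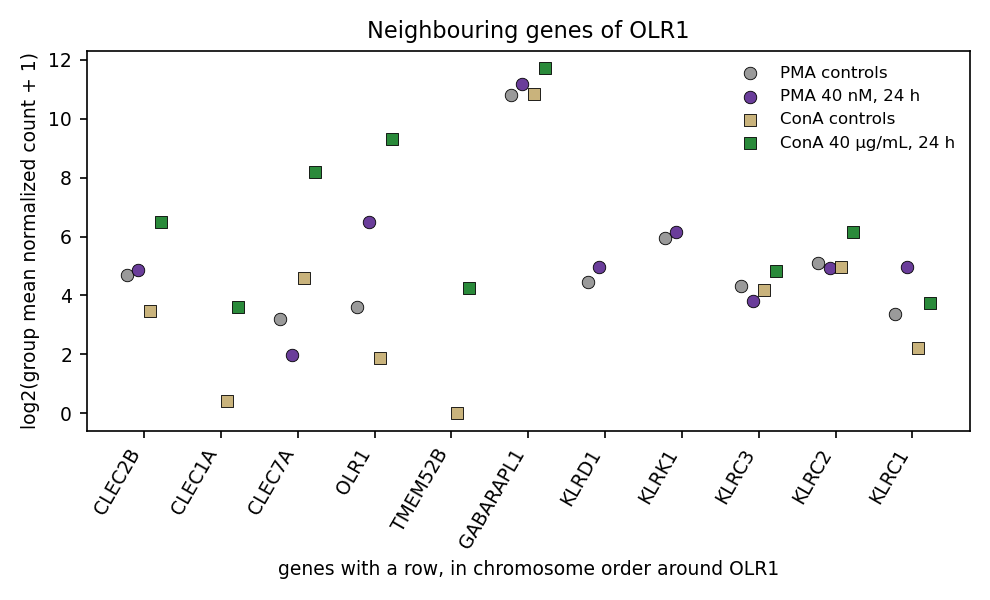
Levels of OLR1 and of the genes around it that have a row, in their order along the chromosome, as log2(group mean normalized count + 1), with circles for the PMA table and squares for the ConA table, to be compared between groups of 1 gene and not between genes. With ConA, all neighbours with a row in the ConA table stand above their controls beside OLR1. With PMA, CLEC7A and KLRC3 lie below their controls, and KLRC1 and GABARAPL1 lie above theirs.

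Over the longer list of lectin-like receptors of the complex, none of 10 tested passed with PMA (2 at an unadjusted p under 0.05 in limma) and 4 of 7 rose with ConA (57.1%, against 5.83% of all tested genes). Besides CLEC7A these were CD69, an early activation antigen of lymphocytes (3.84), CLEC2B, a ligand of a natural killer cell receptor (3.33), and KLRC2, an activating natural killer receptor (1.19). CD69 measured 3.13, 3.00 and 1.00 normalized counts in ConA controls and 29.04, 64.8 and 48.5 with ConA, and it reached the minimum mean through the ConA libraries alone, so its count among the 4 rises is a description. In the PMA table CD69 overlapped between groups, at 49.8, 20.6 and 9.93 in controls and 18.6, 38.0 and 88.6 with PMA. The CLEC2B call was lost without ConA library 2 or 3 (adjusted p 3.12e-04 and 1.95e-04 in limma) and without the variance trend (0.00519). The KLRC2 call was lost without ConA control 5 or 6 or any ConA library (adjusted p from 1.97e-04 to 6.13e-04 in limma), without the variance trend (1.14e-04) with quantile normalization (1.41e-04) and at a pseudocount of 10 (log2 change 0.999), and KLRC2 shares sequence with its close paralogs, so its counts are uncertain. STYK1, a kinase-like gene near the complex, rose with ConA (1.92, adjusted p = 2.72e-08 in limma).

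The genes with the profile most like that of OLR1 were acute phase, protease and chemokine genes. Likeness was the Euclidean distance, over the 12 libraries, of log2(normalized count + 1) minus the mean of the controls of the same table, and the median over 14660 compared genes was 14.1. SAA1 and SAA2, acute phase apolipoproteins, were nearest at a distance of 2.54 each, but they are close paralogs whose reads can be split between them and their values are uncertain. CTSS, the lysosomal protease cathepsin S, followed at 3.01, CCL4, a chemokine, at 3.05 and MMP13, a collagenase, at 3.58. The Pearson correlations with OLR1 over these libraries lay between 0.979 and 0.995, which is a description over 4 groups in which treatment sets most of the spread.

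CTSS, the nearest gene without such a paralog, showed the same order of groups at a higher level. It measured 79.3, 81.4 and 79.4 normalized counts in PMA controls and 344, 411 and 365 with PMA, and 60.4, 78.0 and 67.1 in ConA controls and 3731, 5560 and 5105 with ConA. Its ConA library 1 was the lowest of the 3, as for OLR1. MMP13 measured 12.9, 12.5 and 12.6 in PMA controls and 92.9, 70.3 and 46.7 with PMA, and 40.6, 46.0 and 52.1 in ConA controls and 1846, 3029 and 3005 with ConA. CCL4 was at 0, 1.00 and 1.00 in ConA controls and at 142, 187 and 173 with ConA, and at 20.3, 17.9 and 12.6 in PMA controls and 47.6, 56.1 and 50.3 with PMA. Like OLR1, CCL4 was thus lower in the ConA controls than in the PMA controls.

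**Figure D5:**
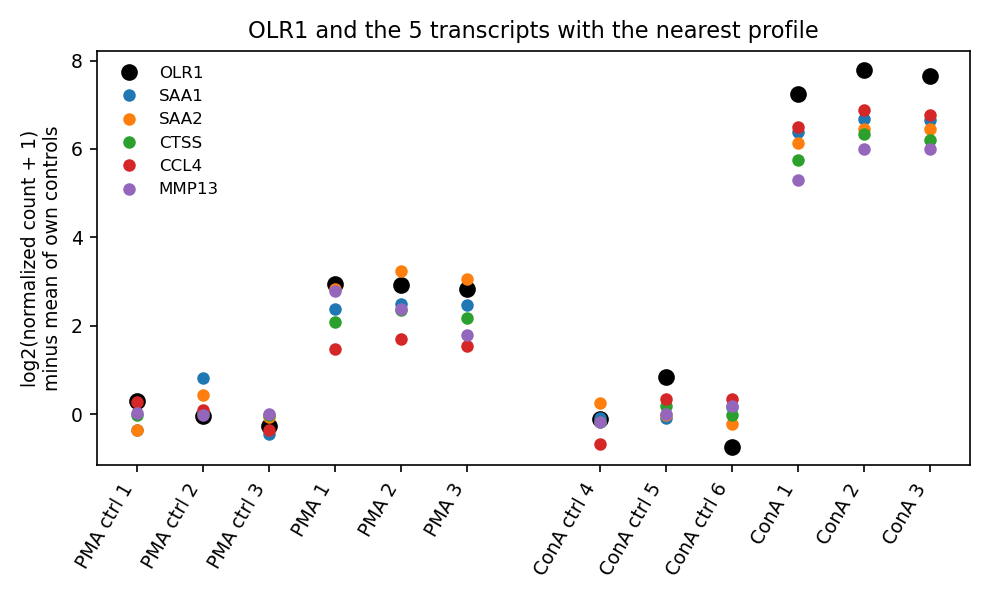
Difference of log2(normalized count + 1) from the mean of the controls of the same table, for OLR1 (large black points) and the 5 genes with the nearest profile, with 1 point per gene and library. All 6 genes lie higher with ConA than with PMA, and OLR1 is the highest of the 6 in each ConA library.

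Markers of other cell types that are known to express OLR1 had rows in part. Of 9 monocyte and macrophage genes, CD14, AIF1, FCGR1A, MRC1 and TYROBP had no row in either table. The 4 listed for PMA summed to 336 to 368 normalized counts in controls and 375 to 413 with PMA, and the 3 listed for ConA to 433.5 to 467 in controls and 373 to 437 with ConA. Most of this sum was CSF1R, with a mean of 357 normalized counts in ConA controls and 260 with ConA. In the same list ITGAM measured 1.04, 3.00 and 7.01 in ConA controls and 32.0, 35.5 and 20.7 with ConA, without overlap. ITGAM had no call, and no test is given because it reached the minimum mean through the ConA libraries in which it was high. Of 8 endothelial genes, CDH5 and CLDN5 had no row, and the 6 listed summed to 2629 to 2809 in PMA controls and 4676 to 4914 with PMA, mostly from TIE1, and to 3043 to 3407 in ConA controls and 3198 to 3612 with ConA. Among these, PECAM1 (60.4 ± 15.3 and 96.7 ± 3.57) and KDR (30.7 ± 11.3 and 65.5 ± 13.6; SD, n = 3 each) lay higher with ConA without overlap, and neither was called. Of 9 leukocyte and lymphocyte genes, 6 were listed for PMA (PTPRC and GNLY among them) and summed to 685 to 756 in controls and 943 to 1414 with PMA, and only CD3D was listed for ConA, at 21.9 to 31.0 and 21.6 to 26.1. The monocyte and macrophage, endothelial and leukocyte sums, and the platelet and erythroid sum given below, moved with OLR1 in the PMA comparison. ITGAM, PECAM1 and KDR did so in the ConA comparison. The endothelial gene VWF went the other way in both, with means from 27.7 to 8.01 with PMA and from 69.5 to 36.5 with ConA. ESAM was lower with PMA (34.4 to 24.6). In the monocyte and macrophage list, LYZ was lower with PMA (10.8 to 2.77), without overlap and too low for a test. CSF1R and ITGAM overlapped between the PMA groups, and CD163 reached the minimum mean through the PMA libraries. At an unadjusted p under 0.05 in limma, 2 endothelial members were higher and 1 lower with PMA, and 3 higher and 1 lower with ConA. The part of any of these genes in the OLR1 values was not tested. Of 5 epithelial genes, 3 were listed for PMA and summed to 27663 to 29534 in controls and 15602 to 16181 with PMA, and all 5 were listed for ConA. Of 8 platelet and erythroid genes, 3 were listed for PMA and 2 for ConA, and in the PMA table they summed to 38.5 to 58.7 in controls and 75.5 to 93.2 with PMA. This rise came from PPBP, with a mean of 2.09 in controls and 62.0 with PMA, which reached the minimum mean through the PMA libraries. The means of GP1BA (34.2 to 20.9) and ITGA2B (11.8 to 3.97) were lower with PMA.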

How the data were processed

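RNA from 12 HT1080 libraries was compared within 2 tables, PMA and ConA, each with 3 treated and 3 control libraries grouped by the deposited labels. The authors deposited signal values, namely estimated reads per gene symbol divided by 1 normalization factor per library, not per length. The submitters' processing notes name Partek, Bowtie2, STAR and DESeq2 and the builds hg19 and mm10 without roles, and versions are not given in the sources used here. The factor was estimated from values of 5 to 60, of which 80.2% to 82.6% became whole within 0.02, so tests for read counts were not run.

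Genes averaging 10 normalized counts or more in a table's 6 libraries were tested with limma 3.58.1 in R 4.3.3 on log2(normalized count + 1), with a variance trend and Benjamini-Hochberg adjustment over all tested genes. The difference between the treatments came from 1 fit of 12 libraries with 4 group means. A table lists genes that reached about 10 reads in some library. Levels per kb used the longest protein-coding transcript of GENCODE 29. Other steps used Python 3.11.15 with pandas 2.3.3, numpy 2.4.6, scipy 1.17.1 and matplotlib 3.10.9.

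OLR1, the gene lists, the tests and thresholds were chosen with earlier results of these data known. The genes named were OLR1, each scavenger receptor with a row, the 5 nearest profiles, and in every other list the members past the thresholds and up to 3 with a high level. CYBB, TMEM52B, CLEC7A in the PMA table and the uncalled shedding genes were named after their values were seen. Alternatives covered the pseudocount (0.1 and 10), the minimum (none and 50), quantile normalization, median centring, the variance trend, 1 fit of all libraries, an adjusted p of 0.05, the replicate block and each library left out. Some members counted in the lists are not reported here by name. The script was tested on simulated data.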

Additional observations from a re-analysis of the deposited data

Results flagged for a closer look

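For 5 scavenger receptors other than OLR1, the changes with the 2 agents differed in limma. SCARA5 is counted among them as a description, because it reached the minimum mean in the PMA comparison through the controls. The log2 difference, PMA minus ConA, was −3.674 for CXCL16, −3.321 for SCARA5, −1.522 for MEGF10, −1.234 for SCARB2 and −1.18 for CD68. CXCL16 was lower in 3 of 3 PMA libraries and higher in 3 of 3 ConA libraries than in every matching control. The MEGF10 difference lost its call without the variance trend (adjusted p = 1.67e-04 in limma) and with quantile normalization (7.61e-04).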

How the results depend on the processing

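OLR1 with PMA kept its call under all 16 alternatives, with log2 changes of 2.23 to 3.22 and, with 1 library left out, 2.77 to 3.05. With the replicate number as a block it was 2.90 (adjusted p = 1.59e-06 in limma). Deviations of same-numbered PMA libraries and controls were weakly correlated (r = −0.064, 0.0964 and 0.0964), and control 1 with PMA library 2 gave 0.106. With 3 libraries per group these values cannot exclude a pairing by number. No paired analysis was possible for ConA because its controls are numbered 4 to 6. OLR1 with ConA was 5.67 at a pseudocount of 10, 6.96 with quantile normalization and 7.19 to 7.99 with 1 library left out. Without the variance trend, 867 genes passed with PMA and 662 with ConA, against 1310 and 1318, and 3 scavenger receptors passed with PMA, against 6. With 1 library left out, 1107 to 1252 and 1123 to 1415 genes passed, and 4 to 6 receptors with PMA and 3 to 4 with ConA. The share of rises among calls was 46.6% with PMA (54.2% without the trend) and 66.9% with ConA (76.4%). Values with no call that turned sign were AGER with ConA (−0.31 to 0.14 with 1 library left out, 0.034 and 0.0018 without control 6 or ConA 2) and PMA (0.046, quantile), its difference (0.20, quantile), COLEC12 with ConA (−0.016, quantile, and −0.057 to 0.19 with 1 library left out), KLRC2 with PMA (0.15, quantile), the SCARF1 difference (0.30, quantile) and SCARF2 with PMA (−0.067 to 0.063 with 1 library left out, 0.023 without PMA 3). Calls of ABCG1, APOE, CD40, CD69, IL1R1, STYK1, VCAM1, VEGFA and VLDLR with ConA and of APOE and IFNGR2 with PMA were lost without the variance trend, and those of APOE (−0.93), IFNGR2 (0.99) and RELB with PMA with quantile normalization. Calls were gained for CCL4 with PMA at a pseudocount of 10 (1.20) and with quantile normalization (1.88), and for the LRP1 difference with quantile normalization (−1.16). SCARA5 with PMA was lost without control 1 (−2.89), CD163 without controls 1 or 2, any PMA library or with the block (2.52 to 2.82), and VCAM1 without ConA 3 (4.79). The cause of these shifts was not tested. OLR1 in the controls rests on 1 to 15 reads per library, which limits its fold changes.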
